A study of Mus musculus with 12 samples.

Results

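Transcripts of the transforming growth factor beta (TGF-beta) pathway, and not its signalling activity, were read in primary mouse hippocampal cultures through 9 genes. These were the ligands Tgfb1, Tgfb2 and Tgfb3, the latent ligand-binding protein Ltbp1, the receptors Tgfbr1, Tgfbr2 and Tgfbr3, and intracellular mediators Smad3 and Smad7. They were taken by their mouse symbols from the 55471 genes of the count matrix, and all 9 were found and passed the filter on low counts that left 19578 genes for testing. The cultures came from the hippocampi of embryonic CD1 mice labelled WT and held neurons together with glia. A single LNA gapmer, a chemically modified antisense oligonucleotide that directs RNase H to its target, was delivered in lipid nanoparticles on day in vitro (DIV) 7 and RNA was collected on DIV 10. The 6 *Neuid* KD libraries received the gapmer against the long non-coding RNA *Neuid* (Gm10419), and the 6 control libraries received a negative control gapmer. The labels do not say whether the libraries came from separate cultures, so p-values measure the spread between these libraries, which may be technical.

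TGF-beta is secreted in a latent form, in which the mature cytokine stays wrapped in its own propeptide, and latent TGF-beta binding proteins tie this complex to the extracellular matrix. Integrins and proteases release the ligand, which brings together the type II receptor (Tgfbr2) and the type I receptor (Tgfbr1), and the type I receptor phosphorylates Smad2 and Smad3. These enter the nucleus with Smad4 and act on transcription, while Smad7 is induced by the pathway and inhibits the type I receptor. In the brain, TGF-beta is known as a factor of astrocyte maturation, scar formation, microglial identity and neuronal survival.

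The libraries held between 11152556 and 30914714 counted reads. Levels are given as reads scaled to library size (CPM) with TMM factors, and *Neuid* itself fell from a control mean of 28.4 ± 2.03 CPM to 8.05 ± 1.13 CPM (± SD over 6 libraries each, log2 fold change -1.81, adjusted p = 1.32e-10). Neuronal markers were abundant in every library, with 14 markers summing to between 7865 and 9289 CPM in control and between 7870 and 9393 CPM in *Neuid* KD. The libraries differed in background reads, taken as the reads on 1778 chemosensory receptor genes, which summed to between 26.0 and 653 CPM in control and between 26.9 and 604 CPM in *Neuid* KD. At or above 100 CPM of background stood 4 control and 3 *Neuid* KD libraries, and under it 2 control and 3 *Neuid* KD libraries, so values within each of these sets are given for the genes whose calls or directions they change.

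Of the 9 genes, 2 rose (Ltbp1 and Tgfb2), 1 fell (Smad3) and 6 were not called. A call needed a p under 0.05 after Benjamini-Hochberg adjustment over all tested genes in the quasi-likelihood framework of edgeR. Among all tested genes 6.31% rose and 2.42% fell, or 8.72% in either direction, against 33.3% of the 9 genes. The 9 genes were chosen with earlier results of these data known, so these shares are described and not tested. The median log2 fold change (*Neuid* KD over control) was -0.03 over the 9 genes and -0.03 over all tested genes. The groups did not overlap for 1 of the 9 genes, Ltbp1, and for 5.7% of all tested genes. In such bulk samples, more cells of a type and more RNA per cell cannot be told apart.

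**Figure D1:**
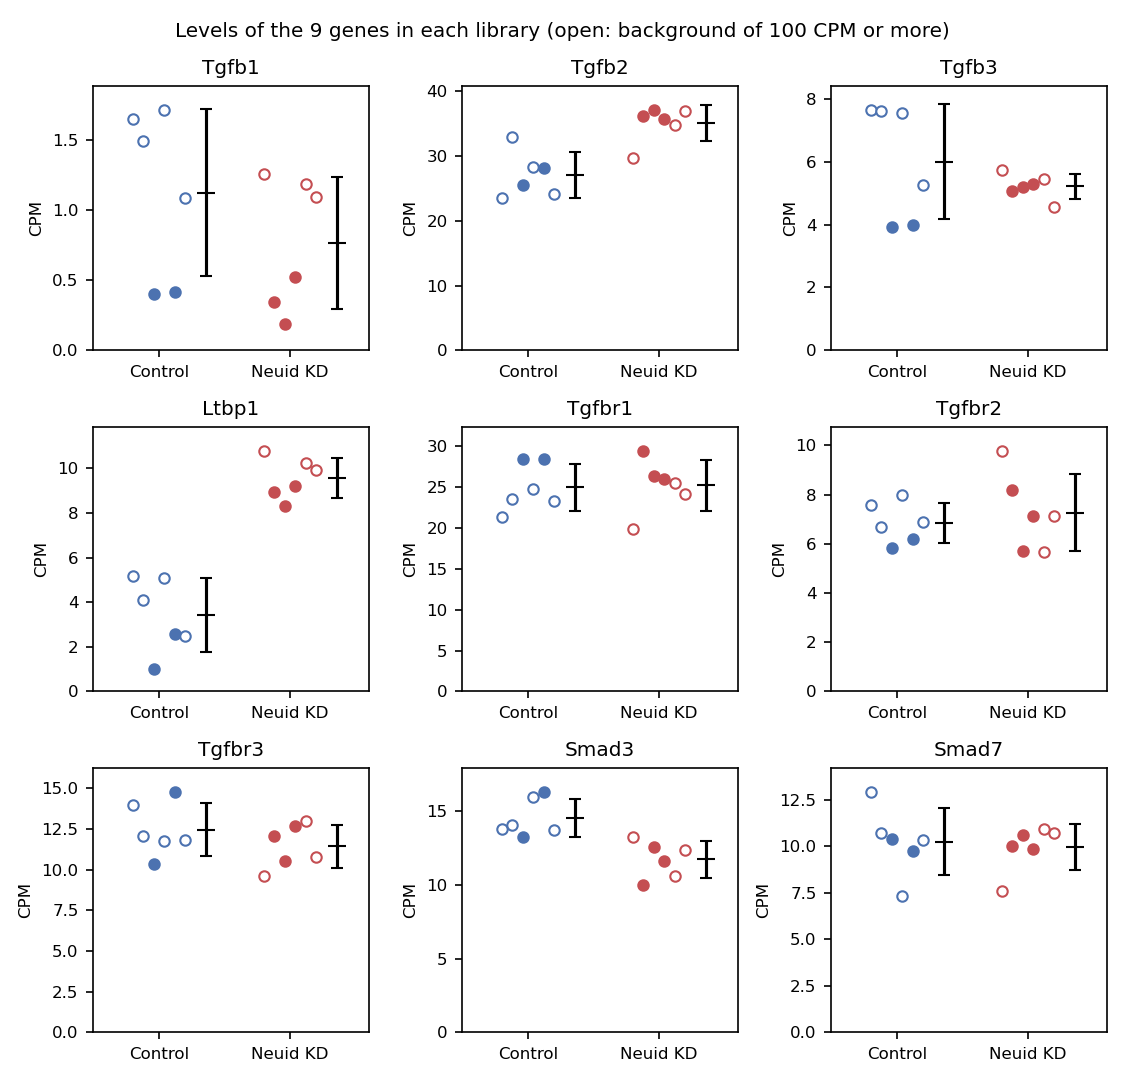
Level of each of the 9 genes in CPM (y axes, each from 0) in the 6 control (blue) and 6 *Neuid* KD (red) libraries, with open points for libraries with at least 100 CPM of background and black marks for the mean ± SD. The groups stand apart for Ltbp1, nearly so for Tgfb2 and Smad3, and overlap widely for the other genes.

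The DNA just upstream of the 3 genes that passed the test is shown so that the elements beside their transcription starts can be read. Each window is the 250 bases before a RefSeq start site on GRCm38.p6, written 5′ to 3′ on the strand of the gene, with matches to 4 letter patterns in capitals. The patterns, chosen after the values of the genes had been seen and searched on both strands, were the cAMP response element TGACGTCA, the GC box GGGCGG, the Smad box CAGACA and the Smad palindrome GTCTAGAC.
Ltbp1, first start, chr17:75005279-75005528, plus strand: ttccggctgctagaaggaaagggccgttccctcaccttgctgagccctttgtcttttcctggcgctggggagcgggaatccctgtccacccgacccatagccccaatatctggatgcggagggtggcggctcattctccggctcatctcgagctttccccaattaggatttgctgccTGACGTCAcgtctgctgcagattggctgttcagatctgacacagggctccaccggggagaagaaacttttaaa
Ltbp1, second start, chr17:75178531-75178780, plus strand: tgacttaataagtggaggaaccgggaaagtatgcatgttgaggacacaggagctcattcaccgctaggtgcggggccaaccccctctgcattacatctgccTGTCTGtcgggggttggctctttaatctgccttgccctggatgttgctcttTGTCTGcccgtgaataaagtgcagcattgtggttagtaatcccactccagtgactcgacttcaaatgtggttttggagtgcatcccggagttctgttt
Tgfb2, chr1:186705990-186706239, minus strand: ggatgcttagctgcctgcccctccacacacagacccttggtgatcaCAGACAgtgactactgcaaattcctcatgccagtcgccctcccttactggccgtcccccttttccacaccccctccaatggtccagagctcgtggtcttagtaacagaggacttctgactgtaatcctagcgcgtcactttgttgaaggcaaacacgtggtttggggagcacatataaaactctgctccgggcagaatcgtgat
Smad3, chr9:63757995-63758244, minus strand: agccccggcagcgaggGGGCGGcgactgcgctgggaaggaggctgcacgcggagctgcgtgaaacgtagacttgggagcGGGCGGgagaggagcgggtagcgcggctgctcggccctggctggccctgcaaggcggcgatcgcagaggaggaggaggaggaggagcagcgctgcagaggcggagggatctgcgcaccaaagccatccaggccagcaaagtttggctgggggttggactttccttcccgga
The window of the first Ltbp1 start held 1 cAMP response element, beginning at position -73 from the start, and no Smad box. The window of the second Ltbp1 start, which serves a shorter transcript within the gene, held 2 Smad boxes on the opposite strand, at -149 and -98. The Tgfb2 window held 1 Smad box at -204, and the Smad3 window held 2 GC boxes at -234 and -171 in a sequence of 69.2% G and C. Windows of genes that were not called also held such matches, with 5 GC boxes for Tgfb1. For Tgfbr1, 1 window held 2 GC boxes and another held 1 Smad box. The window of Tgfbr2 held none of the patterns, and no window of Tgfb3, Tgfbr3 or Smad7 was searched. Among 32851 windows of the same length, 1.55% held the cAMP response element, 32.7% a GC box, 17.1% a Smad box and 0.167% the palindrome. These matches are descriptions of letters and not sites of binding, and reads were counted per gene, so the 2 Ltbp1 starts were not separated.

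Ltbp1 (ENSMUSG00000001870, GRCm38 chromosome 17, 75005568 to 75392512, plus strand) encodes latent TGF-beta binding protein 1, which is disulfide-bonded to the TGF-beta propeptide and anchors the latent complex in the matrix. In replicates 1 to 6 of control it stood at 5.16, 4.10, 1.00, 5.10, 2.59 and 2.49 CPM. In replicates 1 to 6 of *Neuid* KD it stood at 10.8, 8.92, 8.33, 9.23, 10.3 and 9.94 CPM. The lowest *Neuid* KD library exceeded the highest control library, and the control libraries were the more spread of the 2 groups. The mean rose from 3.41 ± 1.66 to 9.58 ± 0.909 CPM (± SD over 6 libraries each), which is 281% of the control level. The log2 fold change was 1.51 (standard error 0.259, 95% interval 0.96 to 2.06), with an adjusted p of 0.000757. Behind these values stood between 30 and 110 reads per control library and between 128 and 264 per *Neuid* KD library.

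The level of Ltbp1 differed with the background of the library. Among libraries with at least 100 CPM of background, control ranged from 2.49 to 5.16 CPM and *Neuid* KD from 9.94 to 10.8 CPM, for a log2 fold change of 1.31 (adjusted p = 1.26e-07). Among libraries under 100 CPM, control stood at 1.00 and 2.59 CPM and *Neuid* KD between 8.33 and 9.23 CPM, for a log2 fold change of 2.34 (adjusted p = 2.05e-08). Ltbp1 therefore rose within both sets, and the difference between their fold changes was not tested. With log2 of the background as a covariate, the log2 fold change of Ltbp1 was 1.67.

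Tgfb2 (ENSMUSG00000039239, chromosome 1, 186622792 to 186705989, minus strand) encodes the TGF-beta2 ligand. In replicates 1 to 6 of control it stood at 23.5, 33.0, 25.6, 28.3, 28.2 and 24.1 CPM. In replicates 1 to 6 of *Neuid* KD it stood at 29.7, 36.1, 37.1, 35.8, 34.9 and 36.9 CPM. Of the 6 *Neuid* KD libraries, 5 were above the highest control library (replicate 2), and replicate 1 was below it. The mean rose from 27.1 ± 3.52 to 35.1 ± 2.75 CPM (± SD over 6 libraries each), which is 129% of the control level. The log2 fold change was 0.38 (standard error 0.0778, 95% interval 0.21 to 0.54), with an adjusted p of 0.00399. Among libraries under 100 CPM of background it was 0.41 (adjusted p = 0.000446), and among those at or above 100 CPM it was 0.33 and no longer passed the test (adjusted p = 0.085).

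Tgfb1 and Tgfb3, which encode the other ligands, did not pass the test. Tgfb1 (ENSMUSG00000002603, chromosome 7, 25687002 to 25705077, plus strand) had a low of 0.400, a median of 1.29 and a high of 1.72 CPM in control, against 0.187, 0.812 and 1.26 CPM in *Neuid* KD. Only between 9 and 37 reads per control library and between 4 and 29 per *Neuid* KD library lay behind these values. The groups overlapped, and the log2 fold change was -0.56 (95% interval -1.68 to 0.56, adjusted p = 0.698).
The level of Tgfb1 separated the libraries by background instead of by group. The 7 libraries with at least 100 CPM of background ranged from 1.08 to 1.72 CPM and the 5 libraries under it from 0.187 to 0.525 CPM. The part of background reads in its level was not tested.
Tgfb3 (ENSMUSG00000021253, chromosome 12, 86056745 to 86079041, minus strand) ranged from 3.94 to 7.64 CPM in control (median 6.40) and from 4.55 to 5.73 CPM in *Neuid* KD (median 5.24). The *Neuid* KD range lay wholly inside the control range, and the log2 fold change was -0.20 (95% interval -0.56 to 0.16, adjusted p = 0.658). Its direction turned with the background: the log2 fold changes were -0.41 at or above 100 CPM (adjusted p = 0.294) and 0.36 under it (adjusted p = 0.272). Exons of Tgfb3 overlap those of Gm48008 and Gm37804 on the opposite strand over 7.60% and 4.82% of their bases, and 8.79% of its stretches of 50 bases also occur in another gene, so its value is uncertain.

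**Figure D2:**
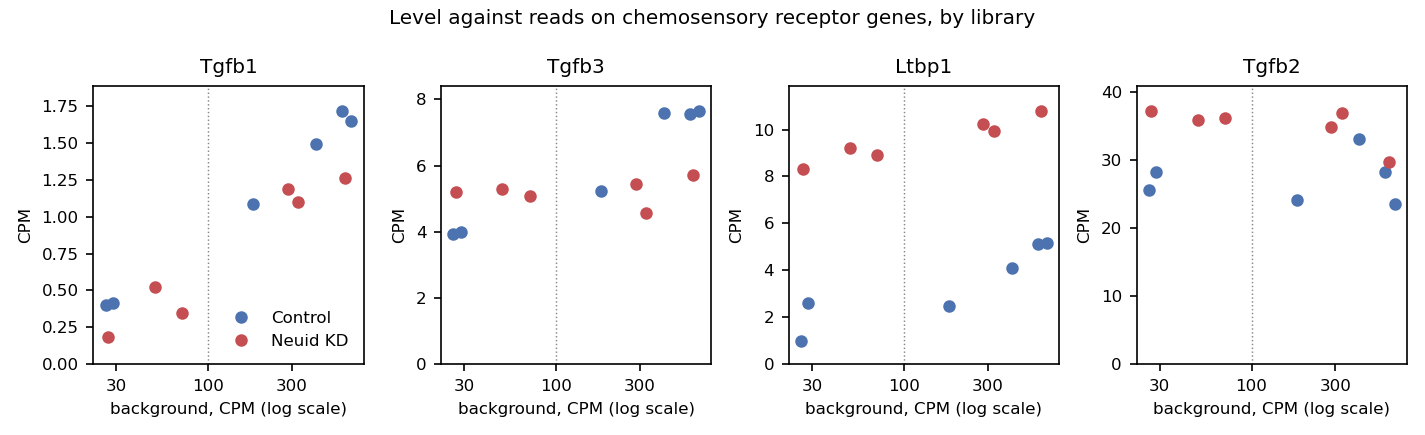
Level of Tgfb1, Tgfb3, Ltbp1 and Tgfb2 in CPM (y axes, each from 0) against the summed CPM of 1778 chemosensory receptor genes (x axis, log scale, dotted line at 100 CPM) in the 6 control (blue) and 6 *Neuid* KD (red) libraries. Tgfb1 climbed with background in both groups, while Ltbp1 was higher in *Neuid* KD on both sides of the line.

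Per kilobase of exon (RPKM), Tgfb2 was the most abundant of the 9 genes in both groups, at 4.68 ± 0.607 RPKM in control and 6.06 ± 0.474 RPKM in *Neuid* KD (SD, n = 6 per group). Its level was higher than that of Tgfbr1, the next gene, in 6 of 6 control and 6 of 6 *Neuid* KD libraries, although the ranges over the control libraries overlapped. Among the ligands, Tgfb2 made up 70.6% ± 7.12 of the summed RPKM in control and 78.0% ± 3.05 in *Neuid* KD (SD, n = 6 per group), and the shares overlapped between the groups. Tgfb3 made up 26.2% ± 5.61 and 20.0% ± 2.28, and Tgfb1 3.25% ± 1.54 and 1.99% ± 1.26. These shares were not split by background, with which the ligands themselves differed. The control mean of Tgfb3 was 7.01 CPM at or above 100 CPM of background and 3.96 CPM under it. For Tgfb1 these means were 1.49 and 0.408 CPM. Summed over the ligands, the level was 6.68 ± 0.996 RPKM in control and 7.75 ± 0.337 RPKM in *Neuid* KD (SD, n = 6 per group).
In the order of control levels, Tgfb2 and Tgfbr1 were followed by Smad3 (2.62 RPKM), Smad7 (2.26), Tgfbr3 (1.90) and Tgfb3 (1.77), and among these 4 the ranges of neighbours overlapped. Tgfbr2 (0.837 RPKM) stood apart from both Tgfb3 above it and Ltbp1 (0.319) below it, and the ranges of Ltbp1 and Tgfb1 (0.224) overlapped. In *Neuid* KD, Ltbp1 reached 0.896 RPKM, beside Tgfbr2 at 0.887, and the ranges of these neighbours overlapped, whereas Ltbp1 was below Tgfbr2 in 6 of 6 control libraries. Smad3 (2.12 RPKM) and Smad7 (2.2 RPKM) changed places in the order, with overlapping ranges in both groups.

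**Figure D3:**
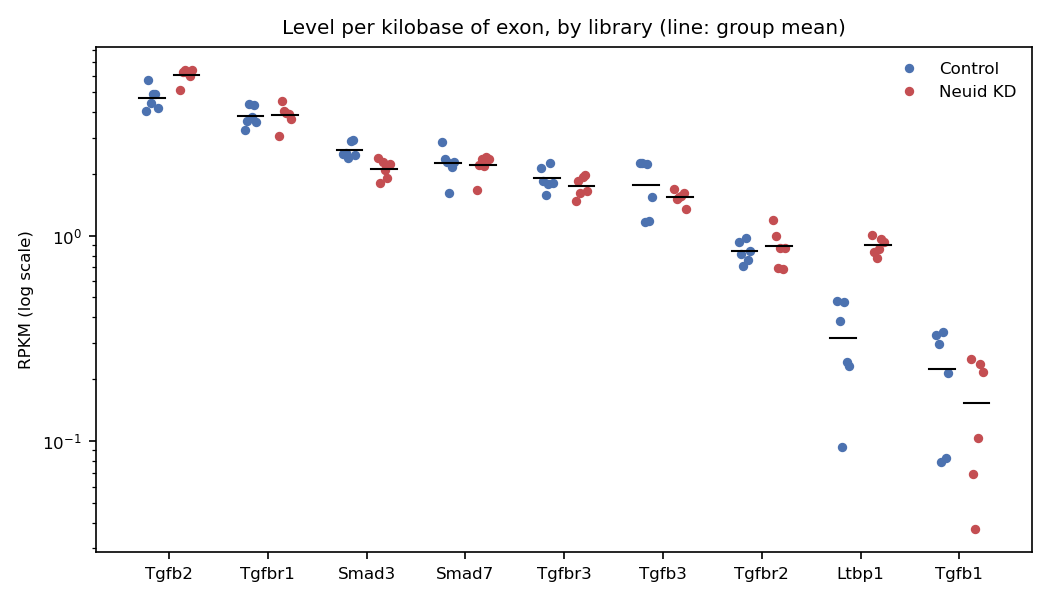
Level per kilobase of annotated exon (RPKM, log scale) of the 9 genes, ordered by their control mean, in control (blue) and *Neuid* KD (red) libraries, with black lines at group means. Tgfb2 was highest and Tgfb1 lowest in both groups, and Ltbp1 moved up to the level of Tgfbr2 in *Neuid* KD.

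None of the 3 receptor genes passed edgeR's test, none had an unadjusted p under 0.05 and none was called by DESeq2. Tgfbr1 (ENSMUSG00000007613, chromosome 4, 47353222 to 47414931, plus strand), the type I receptor kinase, ranged from 21.3 to 28.5 CPM in control (median 24.2) and from 19.9 to 29.4 CPM in *Neuid* KD (median 25.7). Its log2 fold change was 0.02 (95% interval -0.16 to 0.20, adjusted p = 0.938), and its sign changed with the scaling of the libraries (-0.04 with upper-quartile factors). Tgfbr2 (ENSMUSG00000032440, chromosome 9, 116084293 to 116175360, minus strand), the type II receptor that binds ligand first, ranged from 5.84 to 7.98 CPM in control (median 6.77) and from 5.66 to 9.77 CPM in *Neuid* KD (median 7.12). Its log2 fold change was 0.07 (95% interval -0.20 to 0.34, adjusted p = 0.857).
Tgfbr3 (ENSMUSG00000029287, chromosome 5, 107106570 to 107289629, minus strand) encodes betaglycan, a co-receptor that presents TGF-beta2 to the signalling receptors. It ranged from 10.3 to 14.8 CPM in control (median 11.9) and from 9.60 to 13.0 CPM in *Neuid* KD (median 11.4), with a log2 fold change of -0.11 (95% interval -0.30 to 0.09, adjusted p = 0.670). The receptor libraries overlapped widely between the groups, and the intervals bound the change of Tgfbr1 and Tgfbr3 more closely than that of Tgfbr2.

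Smad3 (ENSMUSG00000032402, chromosome 9, 63646767 to 63757994, minus strand) encodes the receptor-regulated Smad that binds DNA downstream of Tgfbr1. In replicates 1 to 6 of control it stood at 13.8, 14.1, 13.2, 16.0, 16.3 and 13.7 CPM. In replicates 1 to 6 of *Neuid* KD it stood at 13.2, 10.0, 12.6, 11.6, 10.6 and 12.3 CPM. Of the 6 *Neuid* KD libraries, 5 were below the lowest control library (replicate 3), and replicate 1 was level with it. The mean fell from 14.5 ± 1.29 to 11.7 ± 1.24 CPM (± SD over 6 libraries each), which is 80.8% of the control level. The log2 fold change was -0.32 (standard error 0.0784, 95% interval -0.48 to -0.15), with an adjusted p of 0.0156. The call was near its threshold: without *Neuid* KD replicate 2 or without control replicate 5 the adjusted p was 0.0527 and 0.0508. Within libraries at or above 100 CPM of background the log2 fold change of Smad3 was -0.26 (adjusted p = 0.385), and within those under 100 CPM -0.40 (adjusted p = 0.0448).

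Smad7 (ENSMUSG00000025880, chromosome 18, 75367529 to 75395935, plus strand), the inhibitory Smad that the pathway itself induces, ranged from 7.33 to 12.9 CPM in control (median 10.4) and from 7.58 to 10.9 CPM in *Neuid* KD (median 10.3). Its groups overlapped, with a log2 fold change of -0.03 (95% interval -0.27 to 0.21, adjusted p = 0.935). The ratio of Smad3 to Smad7 in RPKM was 1.20 ± 0.324 in control and 0.983 ± 0.228 in *Neuid* KD (SD, n = 6 per group), with overlapping libraries.

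**Figure D4:**
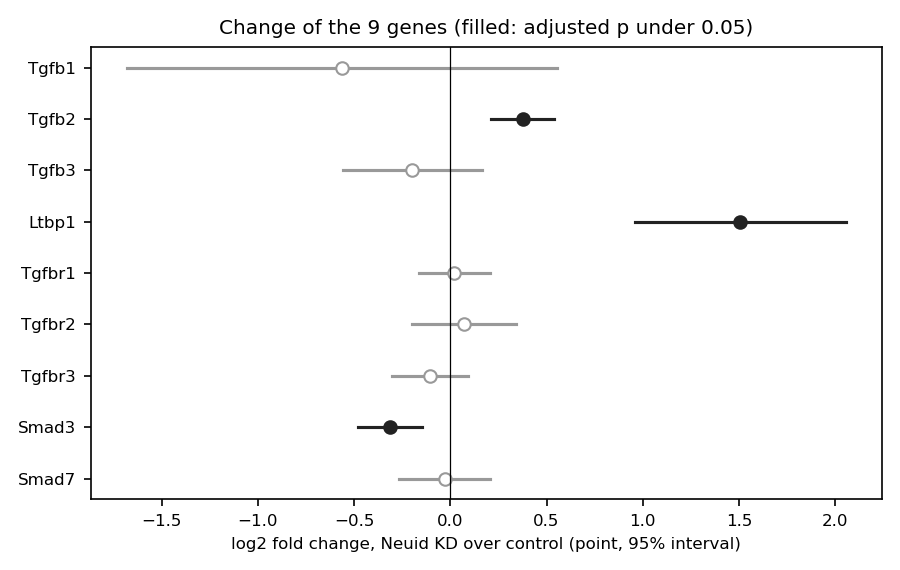
log2 fold change of the 9 genes in *Neuid* KD over control (x axis, point with its 95% interval from edgeR), filled where the adjusted p was under 0.05. Ltbp1 (1.51) and Tgfb2 (0.38) lay to the right of 0 and Smad3 (-0.32) to the left, while the intervals of the other 6 genes included 0.

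The genes around these 9 were counted in 6 lists of the pathway, which together held 137 genes. Of the 124 that were tested, 22 rose and 5 fell (21.8%, against 8.72% of all tested genes), with a median log2 fold change of -0.00. The lists were chosen with earlier results of these data known. Counts of each list below stand against the 6.31% of all tested genes that rose and the 2.42% that fell.

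Of the 25 genes of latency and activation, all tested, 8 rose, 1 fell and 16 did not pass the test, with a median log2 fold change of -0.05. Itgb8 rose from 24.5 ± 2.18 to 50.6 ± 1.79 CPM (log2 fold change 1.05, adjusted p = 6.69e-10). It encodes the integrin subunit that with alpha v binds the propeptide of TGF-beta1 and frees that ligand. Itgb5, another partner of alpha v, rose from 13.7 ± 1.78 to 32.1 ± 3.25 CPM (1.22, adjusted p = 2.21e-08). The groups did not overlap for either integrin. Among proteases, Mmp2 rose from 1.5 ± 0.650 to 4.87 ± 0.531 CPM (1.70, adjusted p = 0.000135) and the membrane protease Mmp14 from 27.5 ± 2.17 to 45.9 ± 2.08 CPM (0.74, adjusted p = 5.53e-08). Thbs2, a matricellular thrombospondin, fell from 5.04 ± 1.16 to 3.37 ± 0.699 CPM (-0.59, adjusted p = 0.0462), with overlapping groups. Thbs2 was not called in either set of libraries by background (adjusted p = 0.425 at or above 100 CPM and 0.0595 under it). It was also not called in 8 of the 12 fits that left out a library, with an adjusted p of up to 0.127 (without control replicate 6). With the background covariate, or with 1 or 2 RUVs factors, 8 genes of this list were called higher and 3 lower. With the covariate these 3 were Thbs2 (adjusted p = 0.00598) and, singled out after their values were seen, Fbn2 (0.00251) and Emilin1 (0.0217).
The relatives of Ltbp1 in this list, singled out after their values were seen, differed in their calls, and only Ltbp3 passed the test. Ltbp3 rose from 10.7 ± 1.89 to 17.8 ± 1.61 CPM (log2 fold change 0.73, adjusted p = 7.03e-05), whereas Ltbp4, the most counted of them, stood at 25.8 ± 2.64 and 24.9 ± 2.88 CPM (-0.05, adjusted p = 0.857). Ltbp2 stood at 2.06 ± 1.37 and 1.73 ± 1.53 CPM (-0.29, adjusted p = 0.870). Also singled out in that way, Itgav, the alpha v subunit itself, rose by 0.43 on the log2 scale (adjusted p = 0.000124), and Bmp1, a protease that cleaves matrix proteins, by 0.33 (adjusted p = 0.0014, and 0.072 among libraries under 100 CPM of background).

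The list of activin and GDF ligands, which use related receptors, and of their antagonists such as the follistatins held no call. Of its 16 genes, 11 were tested and 0 rose or fell by edgeR's quasi-likelihood test, with a median log2 fold change of -0.18. At an unadjusted p under 0.05 there were 1 higher and 3 lower, and DESeq2 called 0. In 7 of 12 other settings, however, 1 or 2 genes were called lower. The log2 fold change of Fstl1, a follistatin-like protein singled out after its values were seen, was -0.15 without a call (adjusted p = 0.157) and -0.16 with the background covariate (adjusted p = 0.00346). Gdf1 was at 0 reads in all libraries, and Gdf3, Nodal, Lefty1 and Lefty2 were too low to be tested.
Of 14 other receptors and co-receptors, 12 were tested and 1 rose, with a median log2 fold change of -0.05. This was Dab2, an adaptor in endocytosis of the receptors, which went from 1.86 ± 0.496 to 3.93 ± 0.805 CPM (log2 fold change 1.08, adjusted p = 0.00187). The activin receptors Acvr1b and Acvr2a were abundant in counts and had log2 fold changes of -0.04 and -0.03, neither of which passed the test.

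Of 27 other Smads, partners and regulators, 26 were tested, 2 rose and 1 fell, with a median log2 fold change of 0.05. Smad5, a Smad of the BMP branch, rose from 34.7 ± 3.69 to 52.1 ± 6.32 CPM (log2 fold change 0.59, adjusted p = 8.43e-05), without overlap between the groups. Smad2 and Smad4, the partners of Smad3, stood at 40.6 and 40.5 CPM and at 39.9 and 44.1 CPM in control and *Neuid* KD (log2 fold changes -0.00 and 0.15, adjusted p = 0.997 and 0.182). Tgif1, a homeodomain corepressor of Smads, fell from 3.09 ± 0.627 to 1.25 ± 0.306 CPM (-1.31, adjusted p = 0.00105), also without overlap. Sp1, which binds GC boxes, rose by 0.22 (adjusted p = 0.0153), but not within either set of libraries by background (adjusted p = 0.267 and 0.259), nor in 7 of the 12 fits that left out a library (up to 0.127, without *Neuid* KD replicate 2).

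Of 44 transcriptional targets, 39 were tested, of which 7 rose, 3 fell and 29 did not pass the test, with a median log2 fold change of -0.04. Zeb1, a transcription factor of epithelial to mesenchymal transition, rose from 61.1 ± 3.89 to 127 ± 5.31 CPM (log2 fold change 1.05, adjusted p = 1.95e-10). Id3, an inhibitor of basic helix-loop-helix factors that also answers to BMP, rose from 3.22 ± 0.628 to 7.04 ± 1.07 CPM (1.12, adjusted p = 2.52e-05). Timp3, an inhibitor of metalloproteinases, and Col5a1, a fibrillar collagen, rose by 0.57 and 0.46 (adjusted p = 7.24e-07 and 4.41e-05). Timp3 shares 21.3% of its exonic bases with Syn3 on the opposite strand, and whether reads were counted by strand is not given in the sources used here.
The targets that fell were Vim, an intermediate filament protein of immature and reactive glia, from 555 ± 29.1 to 332 ± 8.63 CPM (log2 fold change -0.74, adjusted p = 3.09e-09), the cell cycle inhibitor Cdkn1a from 16.0 ± 1.19 to 11.5 ± 1.33 CPM (-0.48, adjusted p = 0.000444), and the matrix protein Fn1 from 60.8 ± 5.11 to 43.8 ± 8.11 CPM (-0.46, adjusted p = 0.00522). Genes of the list thus passed the test in both directions. With the background covariate 9 targets were called higher and 7 lower, with 1 RUVs factor 10 and 7, and with 2 RUVs factors 10 and 6. Timp1, Lox, Snai1, Snai2 and Ankrd1 were too low to be tested.
Of the 14 genes of the non-Smad arm, all tested, 4 rose and 0 fell by edgeR's test (0 lower at an unadjusted p under 0.05 and 0 lower by DESeq2), with a median log2 fold change of 0.08. These were the kinases Rock1 (0.26) and Mapk14 (0.25), the GTPase Rhoa (0.22) and the Tak1-binding adaptor Tab2 (0.22), with adjusted p between 0.0153 and 0.0404. These calls were not stable: all 4 held in 2 of the 12 fits that left out a library (control replicate 3 or *Neuid* KD replicate 1), and 0 held without control replicate 2 or 6 or without *Neuid* KD replicate 2, 3 or 4. No gene of this arm was called with no filter on low counts or at or above 100 CPM of background (Mapk14, adjusted p = 0.0541, Rock1, 0.376, Rhoa, 0.386, and Tab2, 0.537), and Mapk14 was not called under 100 CPM either (adjusted p = 0.432).

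**Figure D5:**
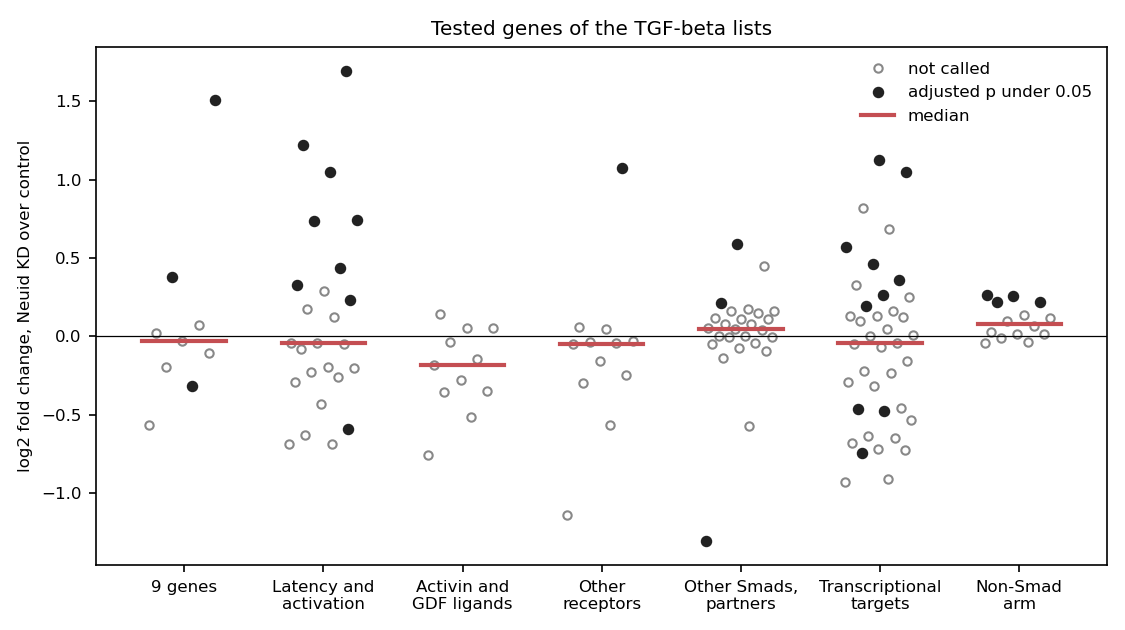
log2 fold change (y axis, *Neuid* KD over control) of each tested gene among the 9 genes and the 6 lists (x axis), filled where the adjusted p was under 0.05, with a red line at each median. Filled points lay mostly above 0 in latency and activation and on both sides of 0 among targets, and no list median was beyond -0.18.

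Markers of other cell types were read beside these genes. Of 15 markers of homeostatic astrocytes, 14 were tested and all 14 rose (median log2 fold change 1.43), and their sum went from between 2035 and 2619 CPM in control to between 5098 and 5707 CPM in *Neuid* KD. Of 10 markers of oligodendrocyte precursors, 3 rose and 7 did not pass the test. Their median log2 fold change was 0.13, with single genes from -0.77 to 1.67. The sum of the 10 went from between 142 and 157 CPM to between 298 and 339 CPM. The rises of Ltbp1, Itgb8 and Itgb5 accompanied these marker changes, and the part of the marker changes in those rises was not tested. The markers of fibroblasts, mural and meningeal cells, of which 13 were tested, gave 0 calls in edgeR with group only. At an unadjusted p under 0.05 there were 0, and DESeq2 called 0. Their sums were 53.1 to 96.7 CPM in control and 49.3 to 90.8 CPM in *Neuid* KD. With the background covariate, however, Col1a1 and Col3a1 of this list, singled out after their values were seen, were called lower. Their log2 fold changes were -0.71 and -0.66 (adjusted p = 0.00347 and 0.0143). Col3a1 was also called lower among libraries at or above 100 CPM of background (-0.85, adjusted p = 0.0454).
The markers of endothelial cells and of microglia, with 6 tested in each, likewise gave 0 calls in edgeR, 0 at an unadjusted p under 0.05 and 0 in DESeq2. They summed to between 6.99 and 27.8 CPM (control) and between 7.02 and 25.1 CPM (*Neuid* KD) for endothelial cells, and to between 14.8 and 24.8 CPM and between 13.1 and 24.1 CPM for microglia. The microglial markers P2ry12, Tmem119, C1qa, C1qb, C1qc and Itgam were near 0, each with a mean of at most 0.272 CPM in both groups. Tgfb1, which microglia are known to make in the brain, was thus measured in cultures with few microglial reads.

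The genes whose profile over the 12 libraries was most like that of Ltbp1, by the mean absolute difference of centred log2 CPM, were Als2cl (0.251), Afap1l2 (0.253) and Svep1 (0.256), against a median of 0.835 over 15204 genes. These genes had log2 fold changes of 1.40, 1.17 and 1.33 and, like Ltbp1, control means of 2.78 to 4.93 CPM. The profiles include the difference between the groups, so fold changes near that of Ltbp1 follow from the choice of these genes. For Smad3 the nearest genes were Alkbh4 (0.0533), Slc2a6 (0.0785) and Twnk (0.0853), against a median of 0.230. None of these 3 passed the test (log2 fold changes -0.27, -0.19 and -0.17, adjusted p = 0.271, 0.0539 and 0.132).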

How the data were processed

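RNA was extracted from primary mouse hippocampal cultures on DIV 10, and total RNA libraries were made with a stranded kit. The authors demultiplexed the reads with bcl2fastq, aligned them to mm10 (GRCm38) with STAR, counted reads per gene with featureCounts and deposited unnormalized counts for 12 libraries, with totals from 11152556 to 30914714. The strand setting of the counting is not given in the sources used here. Precision is set by the reads per gene, given with the levels.

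Groups and replicate numbers were taken from the labels. Symbols, positions and exon lengths came from GENCODE M21 for 55144 of 55471 genes. Counts were filtered (filterByExpr), scaled by TMM and tested with edgeR 4.0.16 (glmQLFit, glmQLFTest, group only) with Benjamini-Hochberg adjustment over 19578 genes, and a call was an adjusted p under 0.05. The test was checked on simulated counts. RPKM is CPM per kilobase of merged exons. Alternatives were other scalings, DESeq2 1.42.0, other filters, RUVs factors, a background covariate, splits by background, a replicate block, thinning to 11152556 reads and leaving out each library. The members, lists and motifs were chosen with earlier results of these data known. Named genes were the 9 members, Gm10419 and, per pathway list, all called genes if at most 8, otherwise the 4 largest called changes in each direction. For the members with the largest called rise and fall, the 3 genes of most similar profile were also named. Genes named outside this rule are marked as such or serve as values that did not pass the test. Promoter windows came from RefSeq (GRCm38.p6).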

Additional observations from a re-analysis of the deposited data

Results flagged for a closer look

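In 5 of 74 groups of 6 libraries, examined over 37 genes, the lowest or highest library lay beyond Dixon's limit of 0.625 for its gap over the range, where chance gives about 1 in 20. In *Neuid* KD replicate 1, Tgfb2 stood at 29.7 CPM, against 34.9 to 37.1 CPM in the other *Neuid* KD libraries, and Smad7 at 7.58 CPM, against 9.83 to 10.9 CPM. Replicate 1 was also the library with the fewest reads of all 12. Itgb5 stood at 38.6 CPM in *Neuid* KD replicate 6, against 29.9 to 31.8 CPM in the others. Tgif1 stood at 0.655 CPM in *Neuid* KD replicate 3, against 1.19 to 1.47 CPM. Sp1 stood at 36.7 CPM in *Neuid* KD replicate 5, against 40.2 to 41.6 CPM.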

How the results depend on the processing

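Ltbp1 kept its rise and its call under all 24 alternatives that were run, with log2 fold changes from 1.30 to 2.34, and Tgfb2 under 23 of 24, the exception being libraries at or above 100 CPM of background. The number of the 9 genes that rose was 1 in those libraries and 2 in all other alternatives. The number that fell was 0 in those libraries and 0 with no filter on low counts (Smad3, adjusted p = 0.0672), and it ranged from 0 to 1 when each library was left out, with 0 without control replicate 5 or *Neuid* KD replicate 2. Of the pathway lists, 14 genes rose with no filter and 14 at or above 100 CPM, against 22. The number that fell, 5, was 10 with upper-quartile scaling, 12 with 1 RUVs factor, 11 with 2 RUVs factors and 12 with the background covariate, and ranged from 4 to 8 with each library left out (8 without *Neuid* KD replicate 1). The cause of these changes was not tested.

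Uncalled directions turned for Tgfb3 (0.36 under 100 CPM of background) and for Tgfbr1, at -0.0393 (upper quartile), -0.0080 (1 RUVs factor), -0.0064 (2 RUVs factors), -0.00096 (background covariate), -0.0917 (under 100 CPM) and -0.0467 (thinned), and from -0.0391 to 0.0665 with each library left out. Tgfbr2 was at -0.0081 when thinned and from -0.0560 to 0.125 with each library left out, and Smad7 from -0.107 to 0.0448. The other scalings run in edgeR moved the median of all tested genes by at most 0.0603 on the log2 scale.

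Deviations of same-numbered libraries from their group means had mixed correlations, from -0.637 (replicate 4) to 0.751 (replicate 3) and 0.774 (replicate 1). Libraries also differed in background, so these correlations cannot show whether the numbers pair cultures or batches. With the replicate block, 2 of the 9 genes rose and 1 fell (Smad3, adjusted p = 0.0353), and 22 and 6 pathway genes were called. Tgfb1 had no adjusted p in DESeq2 and no value with a mean filter of 1 CPM. With 4 to 37 reads per library, its change could not be bounded closely.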
